A study of Mus musculus with 28 samples.

Results

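The cytosolic ribosomal protein genes were examined in the left ventricle (LV) and right ventricle (RV) of mice that lost the desmosomal gene Pkp2 from heart muscle cells, with and without gene therapy. Members were all symbols of the deposited RNA-seq count table that carry a standard name of a cytosolic ribosomal protein, namely Rpl or Rps followed by a number, with an optional a, l, x or y, or Rplp0 to Rplp2. This rule read names only and kept 80 of 39152 symbols: 46 of the large subunit, 31 of the small subunit and the 3 proteins of the P stalk. All mice were C57BL6 and carried the floxed allele on both copies of Pkp2 (Pkp2 fl/fl). WT animals were Cre-negative littermates given HBSS, the vehicle. Pkp2-cKO animals carried αMyHC-Cre-ER(T2), a tamoxifen-activated Cre driven by a cardiomyocyte promoter, so that deletion was induced in cardiomyocytes and not in other cells of the heart, and received HBSS. The 2 treated groups had the same Cre-positive genotype and received TN-401, an AAV9 vector carrying human PKP2, at 3E13 or 6E13 vg/kg through the retro-orbital vein 1 week before tamoxifen. The LV was sequenced in 5 WT, 4 cKO, 4 3E13 and 3 6E13 animals, and the RV in 3 WT, 4 cKO, 2 3E13 and 3 6E13 animals, with 12 of the 16 animals giving both chambers. Hearts were collected for RNA weeks after tamoxifen, at a time stated once for the whole experiment, with none stated separately for the vehicle-treated cKO animals.

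The ribosome translates mRNA into protein. The small subunit reads the codons, the large subunit forms the peptide bonds, and the P stalk of the large subunit recruits the translation factors. Most ribosomal protein genes are used in every cell and are transcribed at high and similar rates, and their mRNAs typically begin with a run of pyrimidines, the 5′ TOP element, through which mTORC1 signalling sets how much of them is translated. A few members have a paralogue with a narrower pattern. Rpl3l is made in heart and skeletal muscle in place of Rpl3, a core protein near the peptidyl transferase centre, and rises as muscle matures, while Rpl10l and Rpl39l belong mainly to the male germ line.

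For the 5 members that passed the test of cKO against WT in the RV, described below, the longest pyrimidine run near the annotated start is shown. Ribosomal protein mRNAs typically begin with such a run. Each line gives 30 bases of GRCm39, read 5′ to 3′ on the strand of the gene, with the longest run of C and T within 50 bases of the start in capitals.
Rpl3, chr15:79967628-79967657, minus strand: gatgcgcgCCCTTCgacccgacgcctatgc
Rpl3l, chr17:24946694-24946723, plus strand: ttcccaggTTTTTCCgctggtaccaaaagc
Rps24, chr14:24540735-24540764, plus strand: cgctggggTCCTTCCTTgcgcgttgatatg
Rps16, chr7:28049997-28050026, plus strand: cagctccgCCCCTTCCCCTCCgacaccgcc
Rps2, chr17:24939069-24939098, plus strand: ccgcggcgCCTCCCTCTTCTTCTTCTTCgg
The run was 20 bases long in Rps2, 13 in Rps16, 9 in Rps24, 7 in Rpl3l and 6 in Rpl3. Relative to the annotated start it began at -5 in Rps2, 23 in Rps16, 17 in Rps24, -49 in Rpl3l and -42 in Rpl3. The windows of Rpl3 and Rpl3l thus lie before the annotated start, and those of Rps16 and Rps24 after it. The annotated start used here and below is that of the Ensembl canonical transcript of each gene. The annotated genes of Rpl3, Rps24 and Rps2 begin further upstream, so their windows lie inside the gene. These runs are not shown to be 5′ TOP elements. A run of at least 8 such bases lay within 50 bases of the start, on either side, in 57.5% of the 80 members and in 35.4% of all 21757 protein-coding genes. A run from the annotated start itself, a C followed by C or T to at least 5 bases, occurred in 8.75% of members and 3.62% of all. Annotated starts are often off by some bases, so the windows describe the genome and not the measured 5′ ends of the mRNAs.

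Letters of some known promoter motifs were also counted on both strands of the 250 bases before each start. The ETS core CGGAAG was present in 46.2% of members and in 14.3% of all protein-coding promoters, and the Sp1 box GGGCGG in 48.8% and 36.3%. The TATA box TATAAA was present in 5.0% of members against 11.9% of all, and the MEF2 site, a motif of muscle genes, in 2.5% against 2.79%. Of the 5 members above, Rps2 and Rps16 had the ETS core, with 2 matches in Rps2 and 1 in Rps16. Rpl3l and Rpl3 had none, and neither held a TATA or a MEF2 match in this window.

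Each library held 19364764 to 39381176 counts. Mouse Pkp2 was at 103 to 121.1 CPM (counts relative to the TMM-scaled library total) in WT LV and at 29.18 to 55.25 CPM in cKO LV, and human PKP2 was at 0 in every WT and cKO library and at 167.3 CPM or more in every treated one, as the labels say. The tissue itself differed between groups. Summed CPM of 9 ventricular cardiomyocyte markers was 46960 to 51790 in WT LV against 13140 to 35810 in cKO LV, that of 9 fibroblast markers 989.3 to 1274 against 3457 to 6813, and that of 11 macrophage and monocyte markers 153.2 to 189.3 against 324.7 to 1459. Transcripts of the mitochondrial genome took 33.48 to 37.02% of counts in WT LV and 18.17 to 26.75% in cKO LV. In the RV the same 3 sums were 43240 to 57900 against 12570 to 30880, 1231 to 1504 against 5892 to 12520, and 200.7 to 249 against 554.2 to 1025. Atrial muscle markers, at 18.41 to 21.74 CPM in WT RV, were at 33.48 to 694 in cKO RV, highest in animals 257 and 180. In such bulk tissue, fewer cells of a type and less RNA per cell cannot be told apart, and the part of cell composition in the results below was not tested.

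Expression levels differed widely among members. Levels are compared between genes in TPM, the deposited unit that accounts for transcript length. Over all LV libraries the 5 highest were Rplp1 of the P stalk, with a mean of 686 TPM, Rps2 with 322, Rps29 with 294, Rpl23a with 260 and Rpl30 with 234. In WT LV alone Rplp1 was at 486 ± 62.4 TPM (SD, n = 5). The median over the 77 members with enough counts to test was 98.8 TPM, 37 members lay above 100 TPM, and 7 lay below 10 TPM. The median coefficient of variation among the 5 WT LV animals was 11.5%. Rpl3l, at 47.2 ± 4.77 TPM, and Rpl3, at 41.9 ± 6.47 TPM, were both below the median of members in WT LV.

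**Figure D1:**
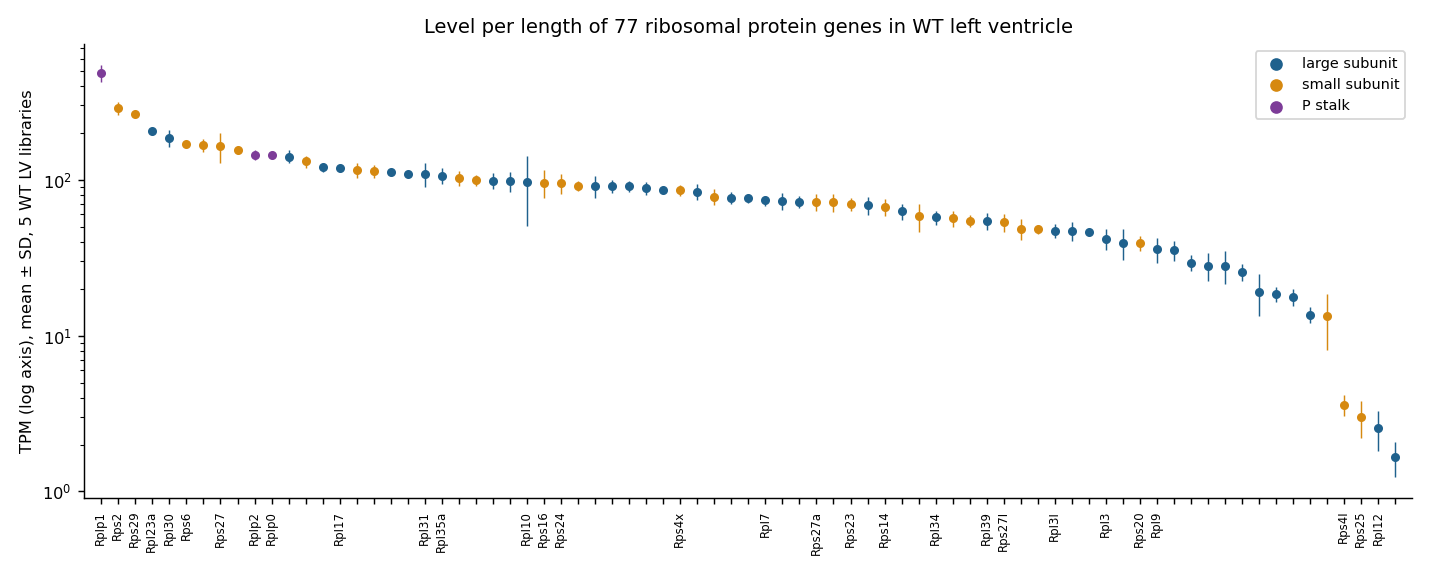
Level of each tested cytosolic ribosomal protein gene in WT LV, in TPM on a log axis, ordered by mean, with a point for the mean of 5 animals, a bar for the SD, and colours for the large subunit, the small subunit and the P stalk, and with names for the members described in the text. Rplp1 stood highest at a mean of 486 TPM, and Rpl3l at 47.2 and Rpl3 at 41.9 TPM lay in the lower part of the order.

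Among the lowest were Rps25 with a mean of 3.27 TPM, Rpl39l with 0.188, Rps12 with 0.0397 and Rpl10l with 0. Rpl10l and Rpl39l, the germ-line paralogues, were not tested because of their counts. Rps12 was not tested either. It is a protein that every ribosome needs, so its listing at 0 to 0.1635 CPM in the LV is unlikely to be its level in the tissue. Of its 50-base stretches 82.2% also occur in annotated pseudogenes, although the 10 pseudogenes linked to it held only 0.2103 to 0.9777 CPM. Whether and where its reads were lost is not known. Rpl12 was listed at 2.623 to 10.03 CPM while the 8 pseudogenes that share its sequence held 55.41 to 145.3 CPM. Rpl10 ranged from 10.33 to 121.4 CPM among LV libraries, and its fitted difference between cKO and WT LV had an SE of 0.55 on the log2 scale, so little can be read from it. Values of these members are uncertain, as the counting can divide reads among near-identical copies.

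The comparison of cKO with WT sets hearts that lost Pkp2 beside hearts that kept it. Only the cKO animals of this comparison carried the Cre, so its part cannot be told apart from that of Pkp2 loss. In the LV, 20 of the 77 tested members rose and 1 fell (edgeR quasi-likelihood test, adjusted p under 0.05), and the median member was 0.28 higher on the log2 scale, against 0.05 for all 16410 genes tested. Of all tested genes 19.7% rose and 16.1% fell, so the 26% of members that rose was near the background, and 1.3% of members fell. The fitted difference was above 0 in 66 of 77 members and in 53.2% of all genes. All 4 cKO libraries lay above all 5 WT libraries for 12 members, and below them for 1, where 14.2% and 14.4% of all genes did so. Without cKO animal 177 the median of the members was 0.12, against 0.01 for all genes, and the calls went from 21 to 11, of which 9 rose. Without any 1 of the WT animals 248, 626, 637 and 647 the calls went to 13.

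Both subunits held members that rose. Of the 30 small subunit members tested, 11 rose (36.7%, where 19.7% of all genes did) and none fell, with a median of 0.31. Rps20, which lies in the head of the small subunit, measured 33.7, 35.8, 36.2, 36.2 and 35.4 CPM in the WT animals and 62.6, 43.0, 47.0 and 47.9 CPM in the cKO animals. The groups did not overlap, and animal 177 was the highest. Its difference was 0.50 ± 0.10 (log2 ± SE, adjusted p = 0.0018). Rps27a, which is made as a fusion with ubiquitin, rose by 0.53 ± 0.17 (adjusted p = 0.0268). Rps4x, encoded on the X chromosome, rose by 0.35 (adjusted p = 0.00551), while its paralogue Rps4l differed by -0.36 ± 0.19 (adjusted p = 0.165).

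Among the 44 tested members of the large subunit outside the stalk, 8 rose (18.2%, below the share of all genes) and 1 fell, with a median of 0.28. Rpl39, a small protein of the exit tunnel, was at 22.7, 23.9, 23.5, 20.02 and 25.7 CPM in WT and at 46.7, 29.2, 33.5 and 34.4 CPM in cKO, with no overlap, and rose by 0.63 ± 0.12 (adjusted p = 0.00086). Of the P stalk, Rplp1 rose by 0.50 ± 0.13 (adjusted p = 0.00705), and the anchoring protein Rplp0 differed by 0.24 ± 0.12 (adjusted p = 0.128) and Rplp2 by 0.12 without passing the test. At the other end, Rps29 (-0.0049), Rpl34 (-0.0057) and Rps27 (0.098), all of more than 5 CPM, were the members nearest to no change. Rps27l, a paralogue of Rps27 that is known as a p53 target, differed by -0.16 (adjusted p = 0.419). The calls of Rpl3, Rpl3l, Rpl7, Rpl17, Rpl39, Rplp1, Rps4x, Rps16, Rps20 and Rps24, 10 of the 21, held in all 19 alternatives.

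**Figure D2:**
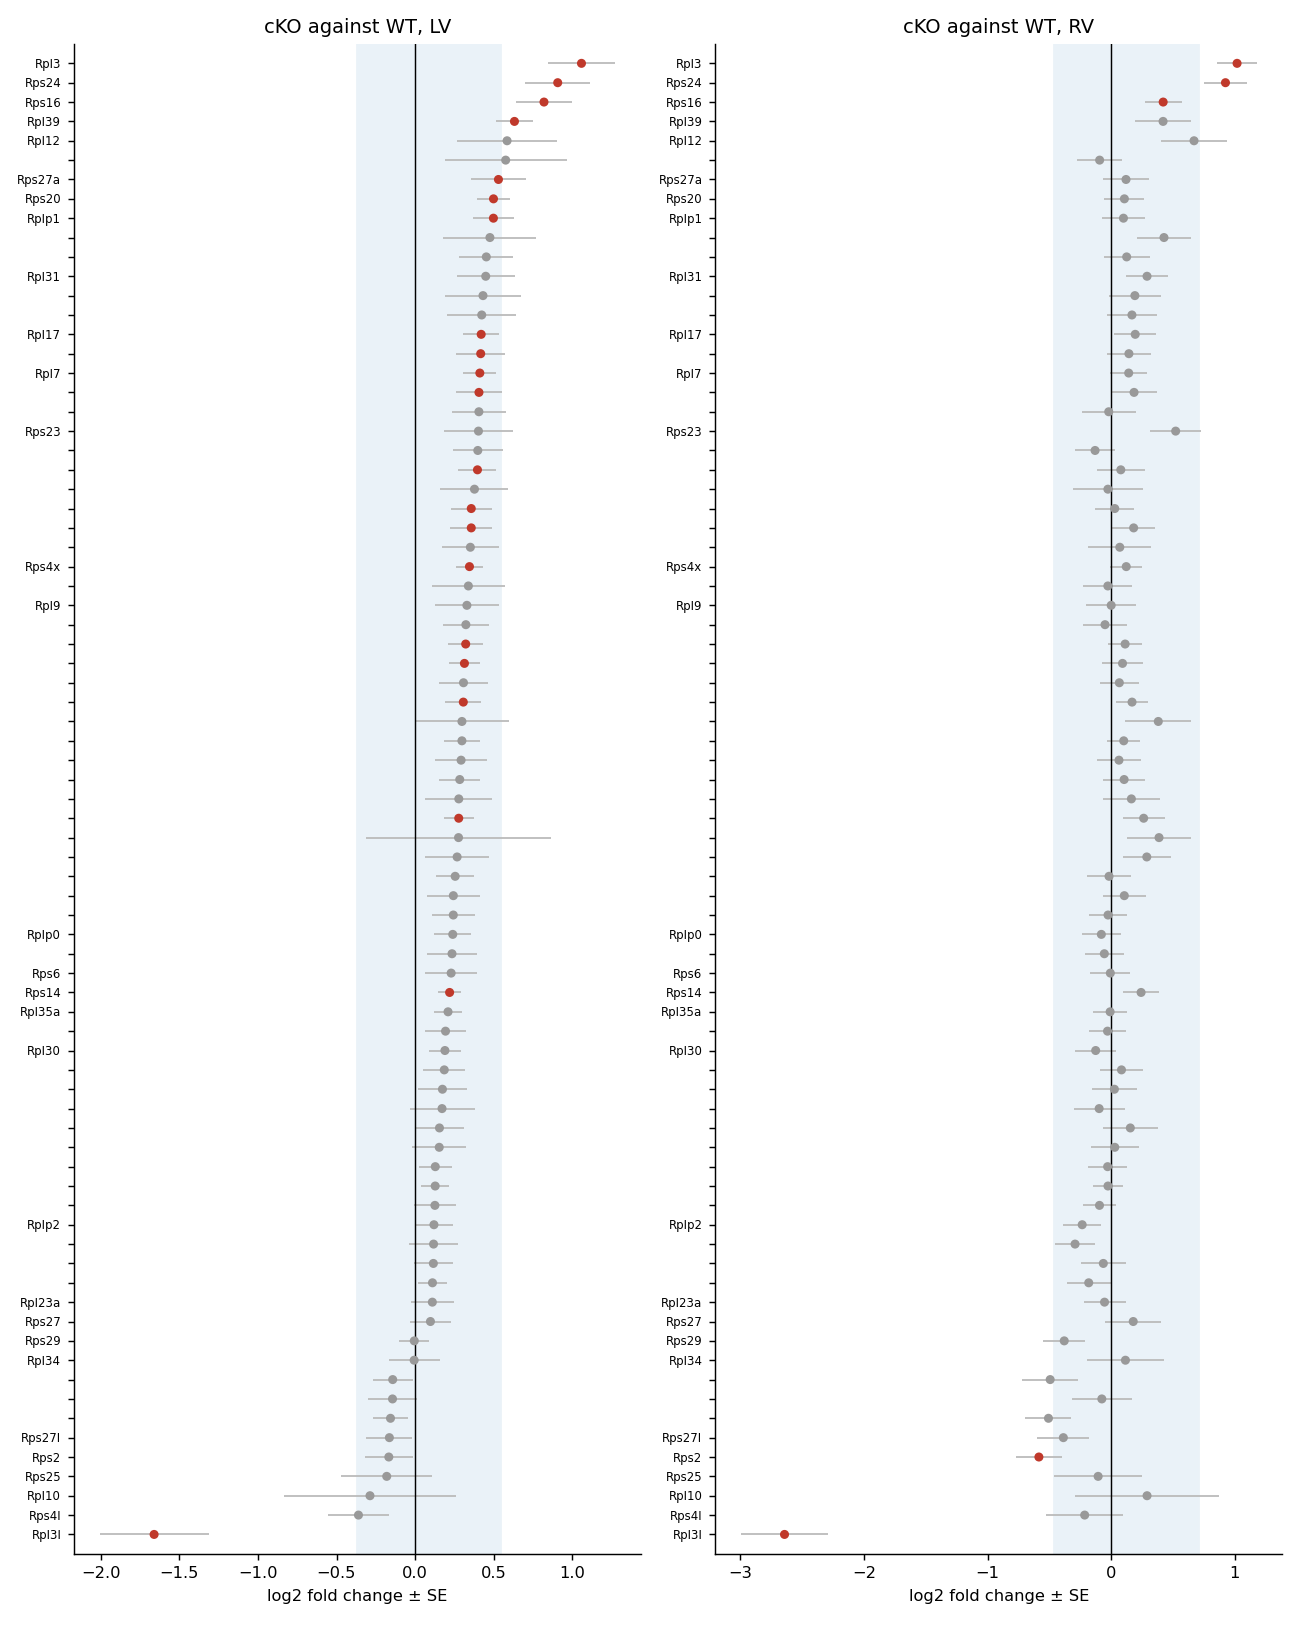
Log2 fold change of each tested member in cKO against WT, for the LV and the RV, with bars for the SE, red points for members with an adjusted p under 0.05, grey points for the others, names for the members described in the text, and a shaded band for the middle 50% of all tested genes. In the LV 66 of 77 members lie above 0 and Rpl3l stands far below the rest, and in the RV Rpl3l, Rpl3 and Rps24 stand apart from members that mostly lie near 0.

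The paralogue pair of Rpl3 and Rpl3l moved in opposite directions. Rpl3l (chr17:24946751-24955119, plus strand, GRCm39) measured 68.5, 94.1, 74.2, 77.6 and 69.5 CPM in WT LV and 7.56, 32.0, 20.7 and 36.9 CPM in cKO LV. In the RV it measured 58.6, 79.1 and 86.7 CPM in WT and 5.06, 18.4, 13.0 and 11.5 CPM in cKO. Every cKO library lay below every WT library in both chambers, with animal 177 the lowest in each. The fall was -1.66 ± 0.35 in the LV (log2 ± SE, adjusted p = 0.00182) and -2.64 ± 0.35 in the RV (adjusted p = 0.000177), the largest fall of any member in each.

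Rpl3 (chr15:79961825-79976069, minus strand) measured 77, 56.8, 69.8, 59.7 and 70.7 CPM in WT LV and 225, 106, 114 and 111 CPM in cKO LV. In the RV it was at 74.5, 65.6 and 90.5 CPM in WT and at 147, 152, 135 and 190 CPM in cKO. Again the groups did not overlap in either chamber, but here the cKO animals were the higher ones. The rise was 1.06 ± 0.22 in the LV (adjusted p = 0.00158) and 1.02 ± 0.16 in the RV (adjusted p = 0.000473). Rpl3 and Rpl3l had no 50-base stretch in common, so that reads of this length separate them, and the 4 pseudogenes linked to Rpl3 held at most 0.5394 CPM in the LV. Over all alternative settings the difference in the LV ran from -1.95 to -1.22 for Rpl3l and from 0.72 to 1.53 for Rpl3, and both calls held in each one.

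As a share of the TPM of the pair, Rpl3l made up 46.94 to 60.96% in WT LV. It made up 3.188, 23.93, 16.36 and 24.84% in cKO LV, where animal 177 was the lowest. In the RV the share was 43.48, 55.38 and 49.71% in WT and 3.446, 10.71, 9.249 and 5.838% in cKO. Rpl3l thus went from about as abundant as Rpl3 to the minor form of the pair in all 8 cKO libraries. These shares are a description without a test, and cardiomyocyte markers fell in the same libraries.

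**Figure D3:**
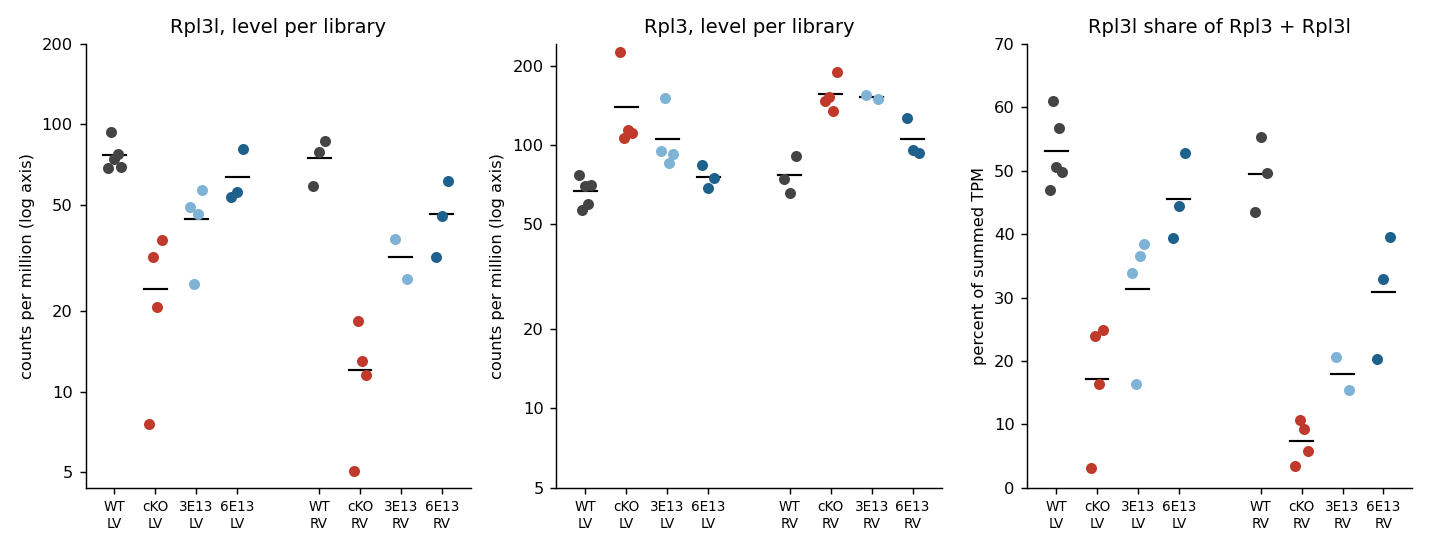
CPM of Rpl3l and Rpl3 on log axes, and the percent of their summed TPM that Rpl3l makes up, with a point for each library of the LV and the RV by group and a line at the group mean. Rpl3l falls from 68.5 CPM or more in WT LV to 36.9 CPM or less in cKO LV while the 4 cKO LV values of Rpl3, from 106 CPM up, lie above all WT LV values. Treated animals spread from 25.2 CPM of Rpl3l, within the cKO range, to 80.9 CPM, within the WT range.

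In the RV few other members were called in the main fit. In cKO against WT, 3 of 77 members rose and 2 fell, where 19.8% of all 17307 tested genes rose and 17.6% fell, and the median member was 0.07 higher, against 0.06 for all genes. Without 1 library this median ran from -0.06 (without WT animal 636) to 0.27 (without WT animal 647). The count depends on the scale. On log2(TPM + 1), 70 members rose and 1 fell, where 9478 of the 17307 genes rose and 545 fell. There the median member was 0.988 higher, against 0.542 for all genes. Besides Rpl3 and Rpl3l the members called in the main fit belonged to the small subunit. Rps24, a protein mutated in Diamond-Blackfan anaemia, measured 50.3, 52.4 and 71.0 CPM in WT RV and 103, 114, 92.0 and 131 CPM in cKO RV. All cKO values lay above all WT values, and the rise was 0.93 ± 0.17 (adjusted p = 0.00152). In the LV, Rps24 went from 34.8, 43.5, 47.1, 45.8 and 53.5 CPM to 110, 67.6, 87.7 and 72.4 CPM, again without overlap, a rise of 0.91 ± 0.21 (adjusted p = 0.00318).

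Rps16, which reaches towards the tRNA in the P site, rose by 0.82 ± 0.18 in the LV (adjusted p = 0.00271), a call kept in all 19 alternatives. In the RV its difference was 0.42 ± 0.15 (adjusted p = 0.0448), and this call was kept in 7 of 17 alternatives, among them without WT animal 647 but in none of the other 6 runs with 1 library left out. Its 2 linked pseudogenes held 0 to 18.96 CPM in the LV and 0 to 26.19 CPM in the RV, and with them added the difference in the RV was 0.26 (adjusted p = 0.226). It was at 40.4, 59.4, 65.4, 54.8 and 49.3 CPM in WT LV and at 142, 72.5, 81.0 and 85.2 CPM in cKO LV, and in the RV at 61.9, 62.4 and 94.7 CPM in WT and 102, 94.6, 93.6 and 101 CPM in cKO. The groups were apart in the LV and overlapped in the RV, where WT animal 647 was within the cKO range. Rps2, a protein of the mRNA entry, fell by 0.58 on the log2 scale in the RV (SE 0.18, adjusted p = 0.0259), from 238, 311 and 393 CPM to 176, 207, 185 and 270 CPM, with 1 cKO animal above the lowest WT animal. On log2(TPM + 1) the difference of Rps2 was 0.27 instead (adjusted p = 0.166), where the median of all genes was 0.54. The call of Rps2 was kept in 11 of 17 alternatives, and was lost without WT animal 637 or 647 or without cKO animal 177 or 257. Rpl9, Rps6 and Rpl35a were the members nearest to no change, at 0.0003, -0.0066 and -0.0082. Members called in the LV and not in the RV included Rpl39 (0.42, adjusted p = 0.175 in the RV) and Rplp1 (0.10, adjusted p = 0.696), and the paralogue Rps27l differed by -0.39 (adjusted p = 0.177).

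A single WT library bears on the RV counts. The summed CPM of all members was 4507.7 and 5154.6 in WT RV animals 636 and 637 but 7292.2 in animal 647, and 5021.3 to 6740.7 in the 4 cKO RV libraries. The typical transcript length in animal 647 (median weighted by counts) was 2514 bases, and the 2 3E13 RV libraries had 2545 and 2788 bases and member sums of 7647.4 and 7299.8 CPM, while the other 25 libraries had 2905 to 3339 bases. Within the RV these 3 libraries had the shortest typical transcript and the highest member sums in CPM. This order rests on the scaling: as a share of all nuclear counts, WT animal 647 had 0.895% of members, below the 1.01% of cKO animal 264. The part of RNA quality or library preparation in this was not tested. Without animal 647 the members called in cKO against WT RV went from 5 to 12, of which 11 rose. Without WT animal 637 or cKO animal 177 there were 3 calls. Rpl3l, Rpl3 and Rps24 were called under all 17 alternatives tried.

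**Figure D4:**
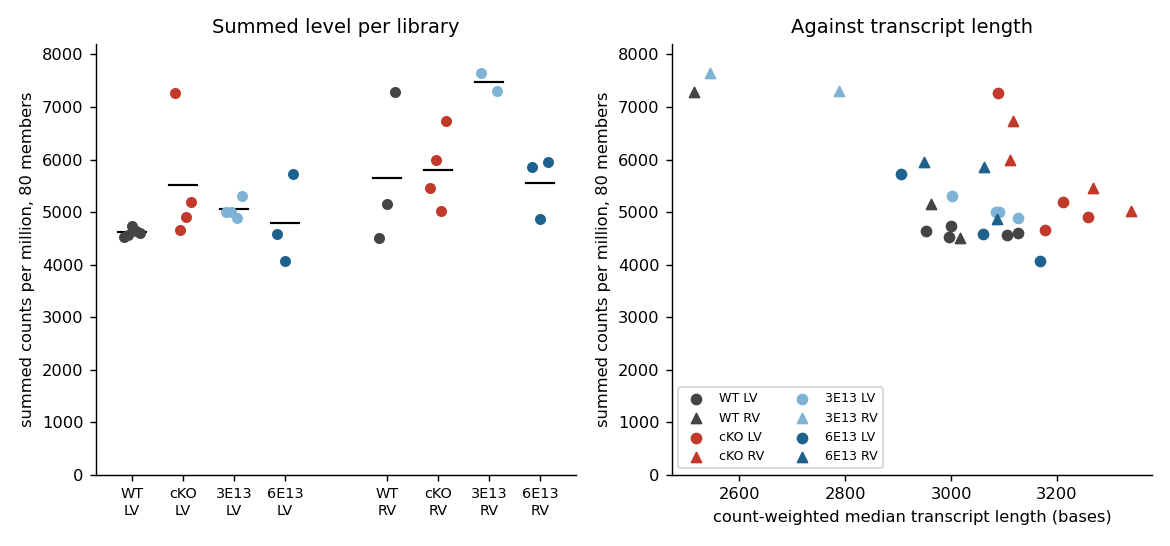
Summed CPM of all members, on the left for each library by group and chamber with a line at the group mean, and on the right against the median transcript length weighted by counts, in bases, with CPM scaled separately in the 2 chambers. WT LV libraries lie between 4532 and 4743 CPM, cKO LV animal 177 stands at 7275.1 CPM, and in the RV WT animal 647 at 7292.2 CPM lies apart from the other WT animals.

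In the LV the member sum was 4532 to 4743 CPM in WT, whereas cKO animal 177 had 7275.1 CPM and the other cKO animals 4652.2, 4900 and 5201.4 CPM. Animal 177 also had the lowest cardiomyocyte sum, 13140 CPM, and the highest macrophage and monocyte sum, 1459 CPM, of all LV libraries. Members varied together from library to library, with a median pairwise correlation of 0.596 over the 16 LV libraries and of 0.757 over the 12 RV libraries, and 92.7% and 93.3% of the pairs were above 0. These values describe libraries that share groups, scaling and depth. Rpl3l and Rps4l went against the rest, with correlations with the member sum of -0.67 and -0.57 in the LV. In the RV these were -0.02 for Rpl3l and -0.31 for Rps4l.

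Treatment was read against cKO. In the LV none of the 77 members was called at 3E13 (10 at an unadjusted p under 0.05, where 28.9% of all genes were, and 1 by DESeq2), where 11.8% of all genes were called, and the median member was 0.14 lower. Rpl3l, at 49.1, 25.2, 46.3 and 56.7 CPM, was 0.87 ± 0.35 higher than in cKO (adjusted p = 0.116), and Rpl3, at 94.5, 150, 85.3 and 92.5 CPM, differed by -0.40 ± 0.23 (adjusted p = 0.266). Animal 182 had both the lowest Rpl3l and the highest Rpl3 of the dose group and overlapped with the cKO animals. Without cKO animal 180 there were 4 calls, all lower than in cKO, and without cKO animal 177 the median member turned from -0.14 to 0.03.

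At 6E13 in the LV, 1 member rose and 5 fell relative to cKO, where 8.65% of all genes rose and 8.16% fell, and the median member was 0.21 lower. Rpl3l, at 53.3, 55.8 and 80.9 CPM, lay above all cKO values and rose by 1.38 ± 0.38 (adjusted p = 0.022). Rpl3, at 84.1, 68.7 and 74.7 CPM, lay below all of them and differed by -0.88 ± 0.25 (adjusted p = 0.0278). Rps24 (-0.78, adjusted p = 0.0365), Rps4x (-0.32, adjusted p = 0.0383), Rpl39 (-0.42, adjusted p = 0.0485) and Rps14 (-0.28) were the others that fell. No call of this comparison held in all 17 alternatives. Without cKO animal 177 the median member was -0.03, and 3 members were higher and 1 lower. Without 6E13 animal 250 or 631 there was 1 call, without 645 or without cKO animal 264 there were 3, and without cKO animal 180 there were 12.

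Against WT LV, no member was called at either dose. At 3E13, 8 members and 16.6% of all genes had an unadjusted p under 0.05, and 2.5% of all genes were called. Rpl3l differed from WT by -0.79 ± 0.34 (adjusted p = 0.248), and Rpl3 was 0.66 ± 0.22 higher (adjusted p = 0.127), both without overlap with the WT range. At 6E13, 0 members and 6.25% of all genes had an unadjusted p under 0.05, and 0.0853% of all genes were called. There Rpl3l differed from WT by -0.28 ± 0.36 and Rpl3 by 0.18 ± 0.24, and the groups overlapped. DESeq2 called no member at either dose. All comparisons with cKO, or with WT, use the same cKO or WT libraries, so their values are not independent. The median member at 6E13 against 3E13 was -0.06, with 0 calls, 0 members at an unadjusted p under 0.05 (5.56% of all genes) and 0 by DESeq2, where 0.0122% of all genes were called.

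In the RV, Rpl3l was the member that rose with treatment at both doses. It measured 37.2 and 26.5 CPM at 3E13 and 31.9, 45.5 and 61.2 CPM at 6E13, all above the 4 cKO values of 18.4 CPM or less. The rise was 1.41 ± 0.38 at 3E13 (adjusted p = 0.043) and 1.95 ± 0.35 at 6E13 (adjusted p = 0.00276). At 3E13 this was the only call, where 4.77% of all genes rose and 3.83% fell, and the median member was 0.36 higher. On log2(TPM + 1) the median member changed sign, to -0.325, where the median of all genes was -0.4. The 3E13 RV libraries had short typical transcripts, of 2545 and 2788 bases, and the part of this was not tested. The call of Rpl3l was kept in 8 of 16 alternatives and was lost without 3E13 animal 181 or 253 or without cKO animal 257 or 264, and without cKO animal 180 there were 2 calls.

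At 6E13 in the RV, 2 members also fell relative to cKO, where 11.2% of all genes rose and 10.9% fell. Rpl3, at 127, 96.0 and 93.5 CPM, differed by -0.56 ± 0.16 (adjusted p = 0.0238), and Rps24, at 63.7, 67.5 and 92.7 CPM, by -0.56 ± 0.17 (adjusted p = 0.0364). Every 6E13 value of Rpl3 lay below the cKO range, while the highest for Rps24 overlapped with it. Both were lost without cKO animal 264 or 6E13 animal 631, and the call of Rpl3l held in all alternatives. The median member differed by -0.06, and by 0.03 without 6E13 animal 631.

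**Figure D5:**
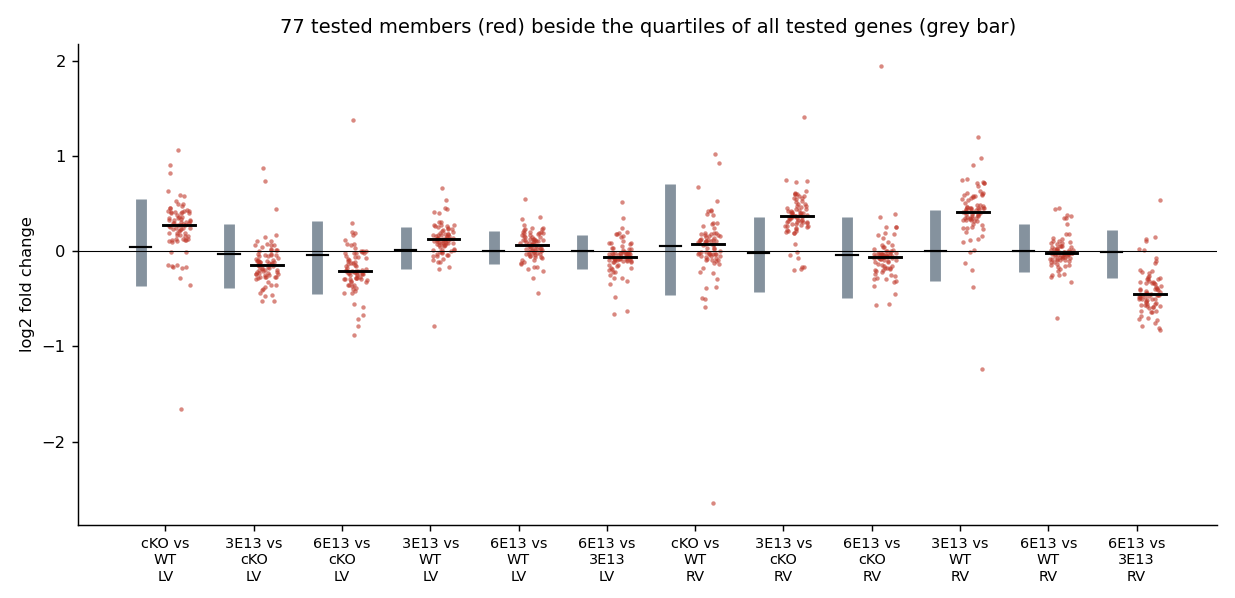
Log2 fold changes of all tested members in the 6 comparisons of each chamber, as red points with a line at their median, beside a grey bar from the lower to the upper quartile of all tested genes. The members lie higher in 3E13 against WT RV, at a median of 0.41, and Rpl3l is the point farthest below in both comparisons of cKO with WT.

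Compared with WT RV, 4 members were higher at 3E13 and none was lower, where 5.8% of all genes rose and 1.58% fell, and the median member was 0.41 higher. Rps24, at 135 and 130 CPM, was 1.19 ± 0.20 higher (adjusted p = 0.00484) and Rpl3, at 154 and 149 CPM, 0.98 ± 0.18 higher (adjusted p = 0.00774). Rps23 (0.90, adjusted p = 0.0417) and Rpl31 (0.73, adjusted p = 0.0462), of the small and the large subunit, were the others. Only Rps24 held in all 15 alternatives. Without WT animal 647 there were 24 calls and a median of 0.64, without 3E13 animal 181 or 253 there was 1, and without WT animal 636 or 637 there were 2. At 6E13 no member was called against WT (0 by DESeq2), where 0.872% of all genes were, 1 member had an unadjusted p under 0.05, as did 12.1% of all genes, and the median member differed by -0.02, and by 0.22 without WT animal 647. At 6E13 against 3E13 in the RV the median member was -0.45, and 34 of 77 had an unadjusted p under 0.05, where 8.65% of all genes did, but none passed after adjustment, where 0.0404% of all genes did, and DESeq2 called 1.

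The chambers were compared within animals, with the animal as a block. In WT no member was called between RV and LV (3 at an unadjusted p under 0.05, against 8.56% of all genes), where 0.00556% of all genes were called. In 6E13 none was called either (4 at an unadjusted p under 0.05, against 5.56% of all genes), where 0.0111% of all genes were. In cKO 1 member was called, where 4.08% of all genes were. It was Rpl3l, which differed by -1.08 ± 0.18 (RV minus LV, log2 ± SE, adjusted p = 0.0109), and its share of the TPM of the pair was lower in the RV in 3 of the 4 animals. The cKO effect on Rpl3l in the RV minus that in the LV was -0.96 ± 0.27 in the edgeR fit (unadjusted p = 0.00372), which did not pass after adjustment (adjusted p = 0.246), and no member was called for a difference of the cKO effect between chambers, where 0.0111% of all genes were (1 member had an unadjusted p under 0.05). Without the animal as a block, Rpl3l did not pass between the chambers of cKO, and 0 members were called. Without cKO animal 177 there were 2 calls.

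Ribosomal proteins whose names fall outside the pattern, of which 8 were tested, gave no single direction in cKO against WT. In the LV 2 were higher and none lower, where 19.7% of all genes rose and 16.1% fell. In the RV 1 was higher and 2 were lower, where 19.8% of all genes rose and 17.6% fell. Fau, which encodes Rps30 fused to a ubiquitin-like protein, rose by 0.49 in the LV (adjusted p = 0.0445) and by 0.81 in the RV (adjusted p = 0.0211), and Rpl22l1, the paralogue of Rpl22, rose by 0.77 in the LV (adjusted p = 0.0273). Rpsa, also known as the laminin receptor, differed by -0.82 in the RV (adjusted p = 0.00543) and did not pass in the LV (-0.45, adjusted p = 0.405). Rps3a1, a protein of the small subunit, was not called in either chamber. The median of the 8 was 0.13 in the LV and -0.41 in the RV.

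The partners of the ribosome in elongation held a second paralogue pair. Eef1a1 and Eef1a2 encode the factor that delivers tRNAs to the ribosome, and Eef1a2 is the form of adult muscle and neurons. Eef1a2 measured 736 to 828 CPM in WT LV and 299 to 501 CPM in cKO LV, and Eef1a1 336 to 425 and 763 to 1306 CPM. The ranges did not overlap, in opposite directions as for Rpl3l and Rpl3. Eef1a2 differed by -0.85 ± 0.13 in the LV (adjusted p = 0.000184) and by -1.13 ± 0.19 in the RV (adjusted p = 0.000677), and Eef1a1 rose by 1.395 ± 0.14 and 1.504 ± 0.15. Relative to cKO, Eef1a2 was higher at 3E13 and 6E13 in the LV by 0.76 and 0.69 and in the RV by 0.74 and 1.09, and each passed the test.

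Of the 19 elongation factors and other mRNAs known to carry a 5′ TOP element, 3 rose and 2 fell in cKO LV, with a median of 0.09, and 2 rose and 3 fell in the RV, with a median of -0.08. Pabpc1, the poly(A)-binding protein, rose by 1.24 and 1.42. These counts, and those of the lists that follow, stand beside 19.7% of all genes that rose and 16.1% that fell in the LV, and 19.8% and 17.6% in the RV. Of 29 initiation factors 3 rose and 9 fell in the LV (median -0.04), and 3 rose and 12 fell in the RV (median -0.30). Among them Eif4e, the cap-binding protein, differed by -0.89 and -1.15, and Eif1a by 1.16 and 0.89.

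Of the 55 tested genes of RNA polymerase I and nucleolar ribosome assembly, 3 rose and 6 fell in the LV (median -0.02) and 1 rose and 13 fell in the RV (median -0.15). Polr1a, the largest subunit of RNA polymerase I, differed by -0.73 and -1.16, and Rrn3, which recruits that polymerase to rDNA, by -0.45 and -0.74. Among 19 regulators in the mTORC1 and Myc pathways, 4 rose and 4 fell in the LV and 2 rose and 3 fell in the RV, with Myc at 2.48 and 2.49.

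The genes whose level followed that of Rpl3l most closely over libraries were, in the LV, Apip and Yipf7 (r = 0.978 each), Tcea3 (0.977) and Crat (0.973) over 16 libraries. In the RV they were Ogdh (0.996), Ndufv1 (0.995), Pdk2 (0.994) and Crat (0.993) over 12 libraries. These correlations span the 4 groups, which differ in their cardiomyocyte content, and describe likeness of pattern only.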

How the data were processed

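Total RNA of mouse LV and RV was sequenced, and 28 libraries of 16 animals were used. The authors quantified transcripts with Salmon 1.8.0 against GRCm39 and summed them to gene symbols. They deposited estimated counts, TPM values and average effective transcript lengths, all per library. The labels name both polyA RNA and a total RNA kit with rRNA removal, and which of these shaped a library could not be settled. Total counts of 19364764 to 39381176 per library set the counting precision. Counts without a symbol made up at most 0.000971%.

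Estimated counts were rounded, filtered with filterByExpr, scaled by TMM and fitted over all genes, separately in LV (16410 genes) and RV (17307 genes), with all 4 groups in 1 model, by the edgeR 4.0.16 quasi-likelihood test in R 4.3.3. P-values were adjusted over all tested genes by Benjamini-Hochberg, and a member was called at an adjusted p under 0.05. The SE of a fold change was its size divided by the square root of F. CPM were scaled within each chamber, so chambers were compared only in a joint fit of the 24 libraries of the 12 animals with both chambers, with the animal, given in the labels, as a block, or by TPM shares. The study used 2-group tests on log TPM, and limma 3.58.1 on log2(TPM + 1) is an alternative here, as are DESeq2 1.42.0, other filters and scalings, length offsets, sex read from Xist, pseudogenes added to their member, and leaving out each library. Pseudogenes linked by sharing at least 20% of their 50-base stretches were chosen as an alternative after seeing the data. The fits were tested on simulated data. In cKO against WT LV, 34.8% of 66 genes changed by 1 on the log2 scale were recovered, with a median fitted change of 1.03. Only 67, 66 and 64 of 16031 tested genes were changed there, by 0.5, 1 and 2, whereas 35.8% of all genes were called in the real data. With so few changed genes the adjusted threshold is stricter, so such shares do not give the recovery in the real comparison.

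Replicates are separate animals. In all 38 pairs of libraries of a group, counts differed by more than sampling noise (chi-squared per degree of freedom at least 16.67). Named were the paralogues and their counterparts, the P stalk, the 5 highest and lowest levels, up to 6 called members in each direction and the 3 nearest to no change per comparison, the proteins outside the name pattern, and up to 4 genes of each other list. Rpl7 and Rpl17, named for keeping their call, were chosen after their values were seen. A few genes that this rule would name are not reported here. Members and lists were chosen with earlier results of these data known. Sequences and positions came from GRCm39 with a later GENCODE release than the one the authors used.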

Additional observations from a re-analysis of the deposited data

Results flagged for a closer look

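Sets of values were the CPM of 1 member, or the summed CPM of all members, in 1 group of 4 or 5 libraries. Of 136 such sets, 13 held a library far from the others by Dixon's criterion, which chance alone meets in about 1 in 20. The sets share libraries and members vary together, so they are not independent and the 13 cannot be weighed against that rate. In the LV library of cKO animal 177, 5 members stood high: Rpl3 at 225 CPM (others 106 to 114), Rpl17 at 172 (112 to 122), Rpl19 at 112 (80.8 to 85.2), Rplp2 at 89.8 (59.1 to 63.2) and Rps19 at 68.3 (40.4 to 43.5). This is the library with the lowest cardiomyocyte markers of the LV, and its part in the results is given by the counts without it.

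In the LV library of 3E13 animal 182, Rpl3 at 150 CPM (others 85.3 to 94.5) and Rps20 at 46.5 (40.3 to 40.8) stood high, and Rpl10 at 40.8 (106 to 113) and Rps29 at 80.6 (94.1 to 95.7) stood low. In the RV library of cKO animal 264, Rpl41 at 137 CPM (97.7 to 104) and Rps19 at 61.8 (44.3 to 46.5) stood high. In the LV library of WT animal 637, Rpl37a at 33.6 CPM (38.7 to 40.6) and Rps4l at 4.18 (5.72 to 6.11) stood low. No member had an effect of cKO that differed between chambers after adjustment.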

How the results depend on the processing

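Called members were counted under each alternative. DESeq2 also used its own filter and tested more genes, and log2(TPM + 1) changed both the unit and the test. In cKO against WT LV, 21 became 13 with no filter on low counts, 12 with only these groups in the fit and 68 on log2(TPM + 1), and 11 to 30 with 1 library left out. In 3E13 against cKO LV, 0 became 1 with length offsets, 1 with DESeq2, 31 on log2(TPM + 1) and 0 to 4 with 1 library left out. In 6E13 against cKO LV, 6 became 3 with no filter, 3 with length offsets, 0 with only these groups, 39 on log2(TPM + 1) and 1 to 12 with 1 library left out. In 3E13 against WT LV, 0 became 7 with only these groups. In cKO against WT RV, 5 became 3 with only these groups, 71 on log2(TPM + 1) and 3 to 12 with 1 library left out. In 3E13 against cKO RV, 1 became 2 with no filter, 0 with length offsets, with sex as a covariate or with only these groups, 7 with DESeq2, 9 (all lower) on log2(TPM + 1) and 0 to 2 with 1 library left out. In 6E13 against cKO RV, 3 became 63 on log2(TPM + 1) and 1 to 3 with 1 library left out. In 3E13 against WT RV, 4 became 2 with named pseudogenes added, 7 with DESeq2, 11 on log2(TPM + 1) and 1 to 24 with 1 library left out. In 6E13 against 3E13 RV, 0 became 1 with only these groups and 1 with DESeq2. Between chambers in cKO, 1 became 0 without the replicate block (the animal), and 1 to 2 with 1 animal left out. The cause of these changes was not tested.

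The scale of TPM moved all genes: the median of all tested genes on log2(TPM + 1) was 0.37 in cKO against WT LV and 0.54 in the RV, and members lay 0.44 and 0.45 above it, at 0.81 and 0.99. There 7209 genes rose and 580 fell in the LV, against 3236 and 2639 in the main counts. Rps2 in cKO against WT RV changed sign on this scale, to 0.27. Calls of Rpl3l, Rpl3 and Rps24 in cKO against WT held in both chambers in all alternatives tried. With 2 3E13 RV libraries, leaving out 1 left a lone sample that was assumed to vary like the other groups. Of genes simulated with a change of 0.5 on the log2 scale in cKO against WT LV, at any level, 13.4% were recovered. That simulation changed far fewer genes than were called in these data, so the share does not give the recovery here. Rpl10l, Rpl39l and Rps12 had too few counts to test.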
